A study of Homo sapiens with 7 samples.

Results

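The 2 C-terminal fragments of PTK7 were compared directly: HT1080 cells expressing cPTK7/726-1070 were set against HT1080 cells expressing cPTK7/622-1070. The comparison covered every gene detected on either array, 11860 of the 20045 genes with a probe and of the 13589 genes detected on any of the 7 arrays of the series. A gene counted as detected where its detection p, the share of negative control probes on that array that were at least as bright, was under 0.05. Of the 11860 genes, 10399 were detected on both arrays, 614 only in cPTK7/726-1070 cells and 847 only in cPTK7/622-1070 cells.

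PTK7 is a receptor-like protein with immunoglobulin-like domains outside the cell, a transmembrane helix and an intracellular kinase domain that has no catalytic activity. It acts in planar cell polarity, the process that orients cells within a tissue, and in Wnt signaling. MT1-MMP, a membrane-anchored matrix metalloproteinase, cuts PTK7 outside the cell and leaves a fragment that stays in the membrane. ADAM proteases and then γ-secretase, a protease that cuts within the membrane, release a cytoplasmic fragment, and such fragments of other receptors are known to enter the nucleus.

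Both lines derive from HT1080, a human fibrosarcoma cell line with low endogenous PTK7 and active MT1-MMP and ADAM proteases, and both carry their construct as a stable transfectant. cPTK7/726-1070, with 345 residues, stands for the cytoplasmic fragment. cPTK7/622-1070, with 449 residues, stands for the membrane fragment left by MT1-MMP, and its construct was given the PTK7 signal peptide to bring it to the plasma membrane. Residues 622 to 725, a stretch of 104 residues with the last ectodomain part and the membrane region, are thus present in this fragment and absent from cPTK7/726-1070. Each carries a V5-HIS tag. In the paper's V5 immunoblot, cPTK7/622-1070 was in part cut to a species resembling cPTK7/726-1070. Cells of the cPTK7/622-1070 line thus also held such a shorter fragment, and the lines do not differ purely in residues 622 to 725. The methods describe G418 selection for the cPTK7/622-1070 line; whether either line is 1 clone or a mixed population is not given in the sources used here. The HT1080 control is labelled as carrying a scrambled control and is called parental in the methods. The 4 remaining lines, which serve here only as a frame, were PTK7-silenced cells (shPTK7) and cells with full-length PTK7, its soluble ectodomain (sPTK7) or the Chuzhoi mutant (Chz). Cells were grown for 72 h, and all 7 arrays lay on 1 Illumina HumanHT-12 v4 chip, with 1 array per line. A difference between the 2 arrays therefore has no replicate check and no p is given for any gene; differences between constructs, between independently derived lines and between single arrays cannot be told apart.

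Values are probe signals after background correction and quantile normalization over the 7 arrays. A signal below the array's lowest detected signal was raised to that floor, 60.2 in cPTK7/726-1070 cells, 57.2 in cPTK7/622-1070 cells and 55.7 in HT1080 cells. A fold against an undetected gene is accordingly given as a lower bound. A gene was called higher or lower where the difference was at least 2-fold and the brighter array detected it. Probes detected numbered 19160 in cPTK7/726-1070 cells and 19748 in cPTK7/622-1070 cells, within the 19045 to 20515 of all arrays, and the median deposited signal was 174 in cPTK7/726-1070 and 185 in cPTK7/622-1070 cells.

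Neither fragment array detected the PTK7 transcript. The PTK7 probe with the highest mean signal had detection p values of 0.484 in cPTK7/726-1070 cells and 0.253 in cPTK7/622-1070 cells, and the second probe 0.492 in cPTK7/726-1070 and 0.826 in cPTK7/622-1070 cells. The first probe gave 112 in PTK7 cells, 137 in Chz cells and 104 in HT1080 cells. Where on the transcript these probes lie was not analysed here, so their signal does not check whether the constructs were expressed. The labelled cell type was checked against defining markers. Of 12 mesenchymal markers 8 were detected, with VIM, an intermediate filament protein, at 43630 in cPTK7/726-1070 cells, 56314 in cPTK7/622-1070 cells and 57034 in HT1080 cells. Of 13 epithelial markers 3 were detected, the keratins KRT8 and KRT18 and the factor ELF3, while CDH1 and EPCAM were undetected on both fragment arrays. Of 11 leukocyte and blood markers 5 were detected (CD14, CD34, CD68, HBG1 and LYZ) and PTPRC was not, and of 9 endothelial markers 3 were detected (EGFL7, ESAM and TIE1) and PECAM1, CDH5 and VWF were not. No marker of the 4 lists was called.

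In cPTK7/726-1070 cells 147 genes were called higher (1.24% of 11860) and 119 lower (1.00%) than in cPTK7/622-1070 cells. The genes with the largest rises were CILP, CYB5R2, DMBT1, SGCZ and ANXA10, and those with the largest falls were NDN, NLRP7, NLGN4X, TSPY2 and GJB2. At a limit of 3-fold, 23 genes were higher (0.194%) and 13 lower (0.110%), and at 4-fold 7 were higher (0.0590%) and 9 lower (0.0759%). The median log2 fold over all genes was −0.01, and the middle 95% of genes lay between −0.82 and 0.80. Set beside HT1080 cells, cPTK7/726-1070 cells had 204 genes called higher (1.70%) and 211 lower (1.76%), 3.46% in all, and cPTK7/622-1070 cells had 94 higher (0.783%) and 102 lower (0.850%), 1.63% in all. Among the 21 pairs of arrays the fewest calls, 196, separated cPTK7/622-1070 from HT1080 cells, and the next fewest, 266 (2.24%), separated the 2 fragment lines from each other.

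**Figure D1:**
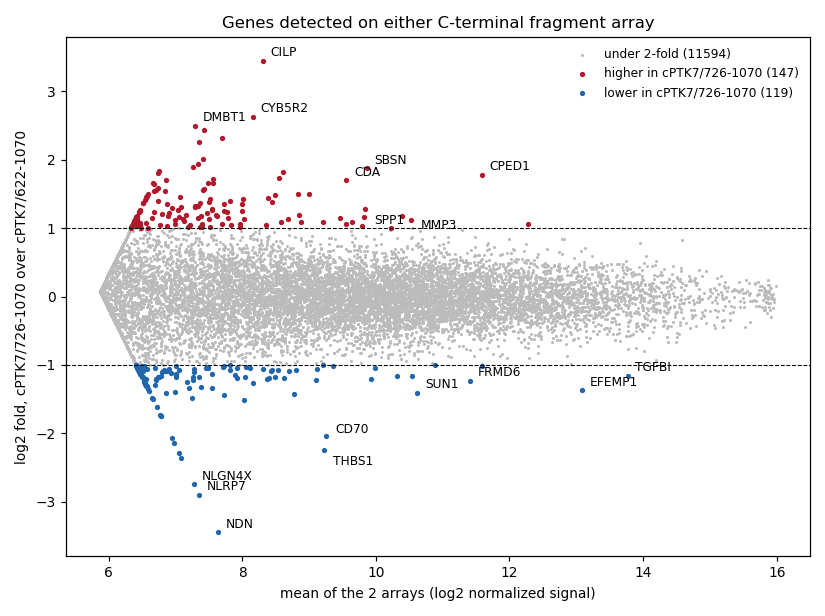
Each point is 1 of the 11860 genes, with the mean log2 normalized signal of both arrays on the horizontal axis and the log2 fold of cPTK7/726-1070 over cPTK7/622-1070 on the vertical axis; dashed lines mark 2-fold. The 147 higher genes (red) and 119 lower genes (blue) lie mostly at low signal, and the sloping edges at the left are genes at the floor of 1 array.

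Calls were more frequent among dim genes. Genes were grouped by their signal on the brighter of the 2 arrays. Of 3079 genes with at least 2000, 0.357% were called. The share was 4.34% of the 2120 genes between 200 and 500, and 3.50% of the 3426 genes under 200. The dimmer array did not detect the gene in 37 of the 147 higher and 35 of the 119 lower genes. The calls also depended on the processing: with the authors' own normalized values 22 genes were higher and 17 lower, and with no background correction 22 and 16. A total of 22 genes, 9 higher and 13 lower, were called under each of 9 other ways of processing. None of the 266 turned its direction under any of them. The size of a fold depended on the processing too, most for genes near the floor: with the authors' values CILP was 5.03-fold higher in place of 10.9-fold and NDN 4.04-fold lower in place of at least 10.9-fold, while for the bright gene EFEMP1 the fold was 2.57 in place of 2.59.

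**Figure D2:**
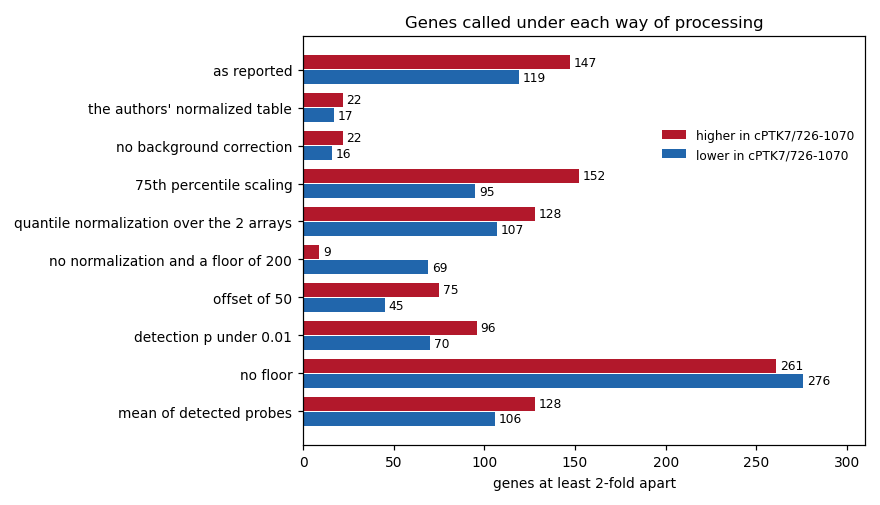
Bars give the number of genes at least 2-fold higher (red) or lower (blue) in cPTK7/726-1070 than in cPTK7/622-1070 cells as reported, 147 and 119, and under each alternative. Counts lie between 9 and 261 for higher genes and between 16 and 276 for lower genes.

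CILP, a secreted matrix protein of cartilage, had the largest rise. Its signal was 1044 in cPTK7/726-1070 cells, 95.8 in cPTK7/622-1070 cells, 155 in shPTK7, 305 in PTK7, 69.9 in sPTK7 and 718 in Chz cells, and it was not detected in HT1080 cells, a 10.9-fold difference between the fragments. A second CILP probe gave 225 in cPTK7/726-1070 cells and no detected signal in cPTK7/622-1070 cells, at least 3.93-fold. CILP was thus high in cPTK7/726-1070 and Chz cells and low in cPTK7/622-1070 cells.

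CYB5R2, a cytochrome b5 reductase, and PPFIBP2, a liprin scaffold protein, are neighbouring genes on chromosome 11, and both rose. CYB5R2 gave 709 in cPTK7/726-1070 cells and 115 in cPTK7/622-1070 cells (6.18-fold), with 113 in shPTK7, 166 in sPTK7, 115 in Chz and 143 in HT1080 cells and no detection in PTK7 cells. PPFIBP2 gave 317 in cPTK7/726-1070 cells and 82.6 in cPTK7/622-1070 cells (3.84-fold), against 55.8 in HT1080 cells. For both genes the cPTK7/726-1070 array stood above each of the 6 others.

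SGCZ, a sarcoglycan of the dystrophin-associated complex, gave 402 in cPTK7/726-1070 and 74.6 in cPTK7/622-1070 cells (5.39-fold), 62.7 in shPTK7 cells and no detected signal in PTK7, sPTK7, Chz or HT1080 cells. ANXA10, a calcium-dependent membrane-binding annexin, gave 463 in cPTK7/726-1070 and 92.8 in cPTK7/622-1070 cells (4.99-fold), with 186 in shPTK7, 149 in PTK7, 88.5 in sPTK7, 111 in Chz and 93.8 in HT1080 cells. Both genes were therefore brightest in cPTK7/726-1070 cells. DMBT1, a scavenger receptor cysteine-rich glycoprotein of mucosal surfaces, differed from them. It gave 374 in cPTK7/726-1070 cells and 66.3 in cPTK7/622-1070 cells (5.63-fold), but 509 in shPTK7 and 466 in PTK7 cells, and was not detected in sPTK7, Chz and HT1080 cells. A second DMBT1 probe was not detected on either fragment array.

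CPED1 was the brightest of the 15 largest rises. It gave 5703 in cPTK7/726-1070 cells, 1657 in cPTK7/622-1070 cells, 867 in shPTK7, 245 in PTK7, 794 in sPTK7, 501 in Chz and 1055 in HT1080 cells, a 3.44-fold difference between the fragments. Its other probes differed 3.12-fold and 3.43-fold the same way. SBSN, a secreted protein of the epidermis, gave 1780 in cPTK7/726-1070 cells, 486 in cPTK7/622-1070 cells, 144 in shPTK7, 1469 in PTK7, 99.8 in sPTK7, 500 in Chz and 223 in HT1080 cells (3.66-fold). CPED1 and SBSN thus shared an order, with cPTK7/726-1070 above cPTK7/622-1070 cells and both above the control. CDA, the pyrimidine salvage enzyme cytidine deaminase, named after its values were seen because its call held under all 9 alternatives, gave 1359 in cPTK7/726-1070 cells and 418 in cPTK7/622-1070 cells, against 364 in HT1080 cells (3.25-fold).

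The remaining largest rises were smaller or dimmer. NELL2, a secreted glycoprotein of neurons, rose 4.80-fold, COL22A1, a collagen chain, 4.04-fold, TMEM238, a transmembrane protein, 3.52-fold and BEX2, a small brain-expressed X-linked protein, 3.32-fold. ACOT1, a cytosolic acyl-CoA thioesterase, was at least 3.55-fold higher and lies beside its near-identical copy ACOT2, which was also called, so the 2 are uncertain as separate calls. SPINK13, a Kazal-type serine protease inhibitor, was at least 3.51-fold higher. Its neighbour SPINK6, named after its values were seen, was higher too, with 2011 in cPTK7/726-1070 cells, 892 in cPTK7/622-1070 cells and 800 in HT1080 cells (2.26-fold). VCY1B, a Y-linked gene with near-identical copies, rose 3.70-fold.

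Most of the largest falls were genes that the cPTK7/726-1070 array did not detect. NDN, necdin, an imprinted growth suppressor, was not detected in cPTK7/726-1070 cells and gave 655 in cPTK7/622-1070 cells, at least 10.9-fold more. Elsewhere NDN gave 86.0 in Chz and 221 in HT1080 cells and was not detected in shPTK7, PTK7 or sPTK7 cells. NLRP7, a NOD-like receptor, was not detected in cPTK7/726-1070 cells and gave 448 in cPTK7/622-1070 cells, the only array of the 7 that detected it, at least 7.44-fold more. NDN and NLRP7 were thus highest of all arrays in cPTK7/622-1070 cells.

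NLGN4X and GJB2 fell as well. NLGN4X, a neuroligin of the postsynaptic membrane, was undetected in cPTK7/726-1070 cells and gave 403 in cPTK7/622-1070 and 348 in HT1080 cells (at least 6.69-fold between the fragments), with no detection in the other 4 lines. GJB2, the gap junction protein connexin 26, was undetected in cPTK7/726-1070 cells and gave 293 in cPTK7/622-1070, 123 in PTK7, 1166 in sPTK7 and 696 in HT1080 cells, at least 4.86-fold between the fragments. GJB2 was also undetected in shPTK7 and Chz cells, so its loss was shared by several lines. TSPY2, a Y-linked testis protein gene with near-identical copies, was undetected in cPTK7/726-1070 cells and gave 308 in cPTK7/622-1070 and 131 in HT1080 cells, at least 5.11-fold. TSPY8, one of those copies, was at least 2.83-fold lower, and the 2 are uncertain as separate calls.

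THBS1, thrombospondin 1, a matricellular glycoprotein, was the largest fall measured on both arrays. It gave 276 in cPTK7/726-1070 cells, 1306 in cPTK7/622-1070 cells, 2281 in shPTK7, 1423 in PTK7, 9672 in sPTK7, 14532 in Chz and 3519 in HT1080 cells, a 4.73-fold difference between the fragments. CD70, a membrane ligand of the tumor necrosis factor family, gave 303 in cPTK7/726-1070 cells, 1244 in cPTK7/622-1070 cells, 875 in shPTK7, 3493 in PTK7, 1773 in sPTK7, 3301 in Chz and 2075 in HT1080 cells (4.11-fold). Both were lowest of all arrays in cPTK7/726-1070 cells and lower in cPTK7/622-1070 cells than in the control. EMILIN2, an elastin-associated matrix glycoprotein, was undetected in cPTK7/726-1070 cells and gave 264 in cPTK7/622-1070 and 494 in HT1080 cells, at least 4.39-fold between the fragments.

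Other falls in this range were HOXC8, a homeobox factor of body patterning (at least 4.19-fold), GSPT2, a translation termination factor (at least 3.36-fold), IFI27, an interferon-induced gene (at least 3.32-fold), FCGBP, a mucin-like protein (at least 3.07-fold), and ERGIC1, a protein cycling between the endoplasmic reticulum and Golgi (2.86-fold). TERF1, a telomere-binding protein, was undetected in cPTK7/726-1070 cells and gave 201 in cPTK7/622-1070 and 181 in HT1080 cells, at least 3.34-fold.

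**Figure D3:**
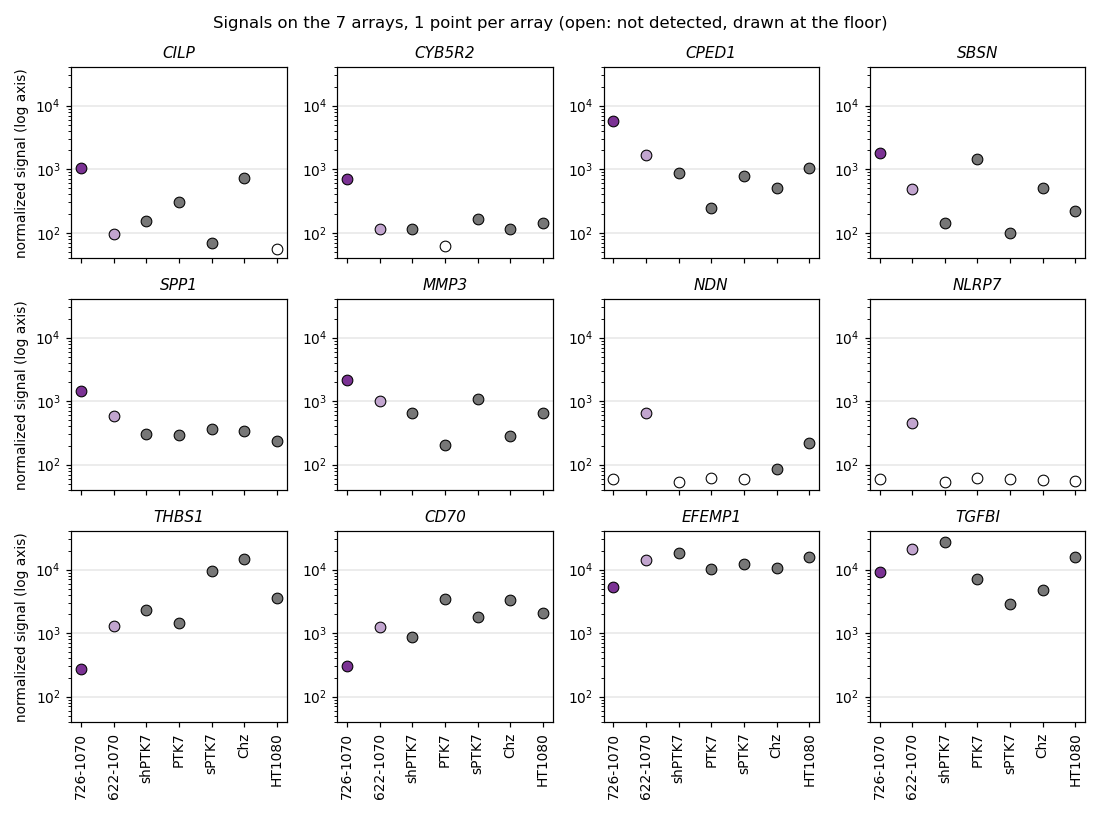
Normalized signal (log axis) of 12 genes on each of the 7 arrays, 1 point per array, with cPTK7/726-1070 at the left and HT1080 at the right; open points were not detected and stand at the floor. CILP gave 1044 in cPTK7/726-1070 cells and 95.8 in cPTK7/622-1070 cells, and THBS1 gave 276 in cPTK7/726-1070 cells and 1306 in cPTK7/622-1070 cells.

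Several calls among bright genes had small folds that held under most or all alternatives. EFEMP1, the matrix glycoprotein fibulin-3, gave 5420 in cPTK7/726-1070 cells, 14024 in cPTK7/622-1070 cells, 18530 in shPTK7, 10279 in PTK7, 12373 in sPTK7, 10532 in Chz and 15561 in HT1080 cells, a 2.59-fold fall to the lowest value of the 7 arrays. TGFBI, a secreted adhesion protein induced by TGF-beta, gave 9337 in cPTK7/726-1070 cells and 20834 in cPTK7/622-1070 cells, against 15848 in HT1080 cells (2.23-fold). TGFBI was lower still in PTK7 (7083), Chz (4722) and sPTK7 cells (2897). Another 4 genes lower under all 9 alternatives were named after their values were seen: SUN1, an inner nuclear membrane protein (966 in cPTK7/726-1070 and 2562 in cPTK7/622-1070 cells), FRMD6, a FERM-domain protein (1768 in cPTK7/726-1070 and 4159 in cPTK7/622-1070 cells), LOXL3, a lysyl oxidase-like matrix enzyme (643 in cPTK7/726-1070 and 1478 in cPTK7/622-1070 cells), and MAP3K7CL (267 in cPTK7/726-1070 and 713 in cPTK7/622-1070 cells).

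The called genes were also placed among the remaining arrays. Of the 147 higher genes, 101 (68.7%) were brighter in cPTK7/726-1070 cells than on all 5 arrays other than the fragments, and 41 (27.9%) were dimmer in cPTK7/622-1070 cells than on all 5. Among genes not called the shares were 17.3% and 9.78%. Of the 119 lower genes, 72 (60.5%) were dimmer in cPTK7/726-1070 cells than on all 5 and 57 (47.9%) brighter in cPTK7/622-1070 cells, against 14.6% and 14.5% of genes not called. The median log2 fold over HT1080 of the higher genes was 0.97 in cPTK7/726-1070 cells and −0.25 in cPTK7/622-1070 cells, and that of the lower genes −0.84 and 0.36. These genes were chosen on the same 2 arrays, so the signs are partly fixed by that choice and the values are a description.

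The study followed several genes by name in these lines. SPP1, osteopontin, a secreted phosphoprotein that binds integrins, was called higher: 1432 in cPTK7/726-1070 cells, 588 in cPTK7/622-1070 cells, 307 in shPTK7, 298 in PTK7, 362 in sPTK7, 340 in Chz and 235 in HT1080 cells (2.43-fold, with 2.78-fold on a second probe). MMP3, the secreted protease stromelysin-1, was also called higher: 2188 in cPTK7/726-1070 cells, 1003 in cPTK7/622-1070 cells, 645 in shPTK7, 205 in PTK7, 1096 in sPTK7, 281 in Chz and 645 in HT1080 cells (2.18-fold). Both fragment lines were thus above the control for these genes, with cPTK7/726-1070 the highest.

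CDH11, a mesenchymal cadherin, had the same order without reaching 2-fold. It gave 3877 in cPTK7/726-1070 cells, 2121 in cPTK7/622-1070 cells, 254 in shPTK7, 255 in Chz and 449 in HT1080 cells and was not detected in PTK7 and sPTK7 cells, a difference of 1.83-fold between the fragments, which were 8.63-fold and 4.72-fold above HT1080. DCLK1, a microtubule-associated kinase, gave 1351 in cPTK7/726-1070 cells and 752 in cPTK7/622-1070 cells, against 411 in HT1080 cells (1.80-fold between the fragments). DCLK1 was highest in shPTK7 cells (1752), gave 68.8 in PTK7 cells and was not detected in sPTK7 and Chz cells. CAV1, the caveolar coat protein caveolin-1, gave 13592 in cPTK7/726-1070 cells and 25867 in cPTK7/622-1070 cells (1.90-fold lower), and a second, dimmer CAV1 probe differed 2.42-fold the same way. For DKK3, a secreted Wnt modulator, CDH2, N-cadherin, MMP9, a gelatinase, ATF3, a stress-induced transcription factor, and DSTN, an actin-depolymerizing factor, log2 folds were −0.17, −0.23, −0.41, −0.75 and −0.23, and none was called.

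Of the genes the study tied to cell migration, a list it chose on these same arrays, 82 pro-migratory genes were tested, of which DMBT1, IL1B and MMP3 were higher and GJB2 and TGFBI lower, 6.10% beside 2.24% of all genes. None of 29 anti-migratory genes and none of 14 others was called. Median log2 folds were −0.07, −0.02 and −0.19, beside −0.01 over all genes. IL1B, the inflammatory cytokine interleukin 1β, gave 409 in cPTK7/726-1070 cells and 161 in cPTK7/622-1070 cells, against 148 in HT1080 cells (2.55-fold), and between 1437 and 3127 in PTK7, sPTK7 and Chz cells.

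Genes of the PTK7 pathway itself were counted against the 2.24% called over all genes. Of 25 planar cell polarity genes tested none was called, with a median log2 fold of −0.05. The outermost were RAC1, a GTPase of lamellipodia (12568 in cPTK7/726-1070 and 21768 in cPTK7/622-1070 cells, −0.79), and VANGL2, a core polarity membrane protein (169 in cPTK7/726-1070 and 104 in cPTK7/622-1070 cells, 0.71). None of 12 proteases and inhibitors of PTK7 cleavage was called (median 0.06). MMP14, which encodes MT1-MMP, gave 271 in cPTK7/726-1070 and 192 in cPTK7/622-1070 cells, and ADAM10, a sheddase, gave 219 in cPTK7/726-1070 and 347 in cPTK7/622-1070 cells. Among 13 γ-secretase substrates none was called either (median 0.06). Of 16 Wnt ligands, receptors and antagonists, FZD8, a Frizzled receptor, was higher, at 558 in cPTK7/726-1070 cells and 262 in cPTK7/622-1070 cells (2.13-fold). Names of uncalled list members here and below were chosen after their values were seen.

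The matrix lists, which hold neither CILP nor COL22A1, were counted next. Of 26 listed matrix proteins other than collagens, SPP1 was higher and THBS1, EFEMP1 and TGFBI were lower, 4 genes (15.4%) beside 2.24% of all genes tested, with a median log2 fold of −0.13. Of 13 collagens in the list, COL5A1, a fibril-regulating chain, was lower, at 142 in cPTK7/622-1070 and 416 in HT1080 cells and undetected in cPTK7/726-1070 cells (at least 2.36-fold); the median was −0.27. None of 23 integrin and focal adhesion genes was called (median −0.21).

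The 15 contractile genes and targets of SRF, the transcription factor that reads the actin state of the cell, held no call, beside 2.24% of all genes. All 15 log2 folds were below 0, with a median of −0.38. The same median lay between −0.58 and −0.30 over all ways of processing. The mesenchymal markers lay as low, with 7 of 8 below 0 and a median of −0.41, and their part in these values was not tested. TPM1, a tropomyosin, gave 5524 in cPTK7/726-1070 and 10942 in cPTK7/622-1070 cells, against 15988 in HT1080 cells. TAGLN, the actin-binding protein transgelin, gave 1011 in cPTK7/726-1070 and 1950 in cPTK7/622-1070 cells, against 4197 in HT1080 cells. ACTA2, smooth muscle actin, gave 795 in cPTK7/726-1070 and 1462 in cPTK7/622-1070 cells, against 3611 in HT1080 cells. For these 3 genes the fragment lines were both below the control, and cPTK7/726-1070 cells were the lower. Over all 15 genes the median log2 fold over HT1080 was −0.52 in cPTK7/726-1070 cells and only −0.09 in cPTK7/622-1070 cells.

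YAP and TEAD targets, genes of the Hippo pathway output, were also mostly below 0: 15 of 18, with no call and a median of −0.28. The reference genes, chosen as commonly stable, were below 0 in 10 of 12 with a median of −0.15, and over all genes 50.9% were below 0. Of 20 TGF-beta, BMP and activin genes, INHBB, an activin subunit (106 in cPTK7/726-1070 and 266 in cPTK7/622-1070 cells, 2.51-fold), and BMPR2, a BMP receptor (160 in cPTK7/726-1070 and 367 in cPTK7/622-1070 cells, 2.29-fold), were lower (10% called beside 2.24% of all genes), and the median was −0.34. A second BMPR2 probe gave 119 in cPTK7/726-1070 and 187 in cPTK7/622-1070 cells.

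**Figure D4:**
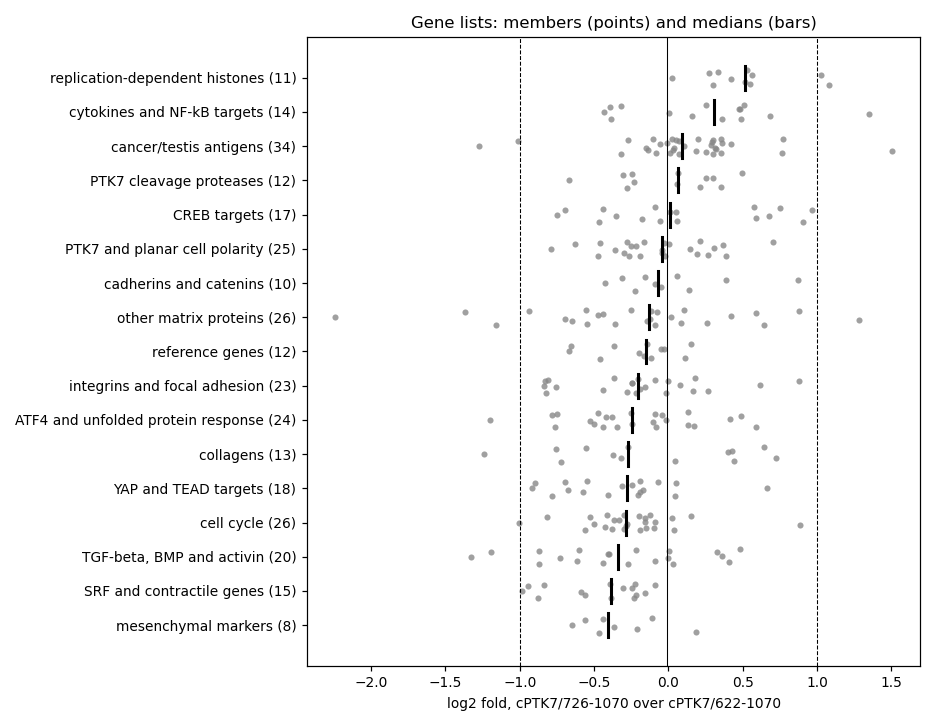
Log2 fold of cPTK7/726-1070 over cPTK7/622-1070 of each tested member (points) and the median (bar) of selected gene lists, with the number of members in parentheses; dashed lines mark 2-fold and the solid line the median of all genes. All 15 SRF and contractile genes lie below 0 and all 11 replication-dependent histones above 0.

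Replication-dependent histones, made mainly during DNA synthesis, were above 0 in 11 of 11 genes with a median of 0.52, which lay between 0.09 and 0.53 over all ways of processing. H2AC18 gave 1158 in cPTK7/726-1070 and 547 in cPTK7/622-1070 cells, against 991 in HT1080 cells (2.12-fold), and H2AC20 gave 1269 in cPTK7/726-1070 and 623 in cPTK7/622-1070 cells, against 1074 in HT1080 cells (2.04-fold). Both belong to a group of near-identical H2A genes and are uncertain as separate calls. For these 2 genes cPTK7/726-1070 cells lay near the control and cPTK7/622-1070 cells below it. Cell cycle genes were below 0 in 22 of 26, with a median of −0.28. RRM2, a ribonucleotide reductase subunit, was their single call (3.85% beside 2.24% of all genes). It was lower, at 1338 in cPTK7/726-1070 cells, 2688 in cPTK7/622-1070 cells and 1539 in HT1080 cells (2.01-fold).

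Among other lists, IL1B was the single call of 14 cytokines and NF-kB targets (7.14% beside 2.24% of all genes). Their median was 0.31, and it lay between −0.03 and 0.31 over all ways of processing. SPRY1, a feedback inhibitor of receptor kinase signaling, was the single call of 21 ERK output genes (4.76%). It gave 184 in cPTK7/726-1070, 78.7 in cPTK7/622-1070 and 178 in HT1080 cells (2.33-fold between the fragments). For SPRY1, cPTK7/726-1070 cells thus lay near the control and cPTK7/622-1070 cells below it. The SPRY1 call held under 4 of the 9 alternatives, and a second probe differed 1.19-fold. Of 34 cancer/testis antigens 3 were called (8.82% beside 2.24% of all genes). PAGE1 was higher, at 861 in cPTK7/726-1070, 303 in cPTK7/622-1070 and 580 in HT1080 cells (2.84-fold between the fragments). In PTK7 cells PAGE1 gave 2543. MAGEC1 and MAGEC2, neighbours on the X chromosome, were undetected in cPTK7/726-1070 cells and lower by at least 2.41-fold and 2.02-fold, calls that held under 3 and 2 of the 9 alternatives. With the authors' values they were 1.46-fold and 1.34-fold lower. No call fell among 22 actin regulators (median −0.09), 20 p53 targets (−0.19), 19 hypoxia-induced and glycolytic genes (−0.06), 13 cholesterol synthesis genes (−0.03) or 22 growth factors and receptor kinases (−0.14). The metal-binding protein gene MT1F (at least 2.81-fold) and the lipoprotein receptor gene VLDLR (2.30-fold) were lower as well.

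CREB, a cAMP-responsive transcription factor whose phosphorylation the study measured, binds the cAMP response element TGACGTCA. The study reported more phosphorylated CREB in both fragment lines than in its other cells. A rise shared by both lines is not addressed by comparing them with each other. Of 26 CREB targets with a probe 17 were tested, and the median was 0.01. None of the 17 was called, beside 2.24% of all genes, a share at which no call among so few genes says little. The members farthest above 0 were CREM, a CREB family factor (155 in cPTK7/726-1070, 79.6 in cPTK7/622-1070 cells, not detected in HT1080 cells), RGS2, a G protein regulator (568 in cPTK7/726-1070, 304 in cPTK7/622-1070 and 232 in HT1080 cells), and EGR1, an immediate early factor (209 in cPTK7/726-1070, 124 in cPTK7/622-1070 and 106 in HT1080 cells). The farthest below 0 was ATF3 (135 in cPTK7/726-1070, 228 in cPTK7/622-1070 and 414 in HT1080 cells). Values of these 4 genes in cPTK7/622-1070 cells thus lay between those of cPTK7/726-1070 and HT1080 cells.

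Promoters of 300 bases, 250 before to 50 after the start site, were read from RefSeq (GRCh38.p14) and searched on both strands for TGACGTCA, which is palindromic and overlaps the shorter motif TGACG. It was found in 2 of 110 promoters of higher genes (1.82%), 7 of 94 promoters of lower genes (7.45%), 3 of 13 promoters of CREB targets, 3.93% of the 9468 promoters of tested genes and 2.25% of all 27305 promoters. The shorter motif was found in 32.7% of promoters of higher genes, 33.0% of those of lower genes and 40.4% of those of tested genes. A match is a description of these letters and not evidence of binding. Shown, to let the flanks be compared, are the matches of XRN2, a nuclear exoribonuclease that was lower (855 in cPTK7/726-1070 and 1914 in cPTK7/622-1070 cells), of POT1, a telomere-binding protein gene that was lower (log2 fold −1.04), of STK38L, a kinase gene that was higher (1.00), and of CREM; the first 3 were named after their values were seen, and capitals mark the element. They lie at chr20:21303267-21303294 (plus strand), chr7:124929831-124929858 (minus strand), chr12:27244106-27244133 (plus strand) and chr10:35195842-35195869 (plus strand).
XRN2: ggcggcgccgTGACGTCActtccgttct
POT1: agcgtgcgtgTGACGTCAcctgcgcgcc
STK38L: gtggtgcgtaTGACGTCAgggcgagtcg
CREM: agctgcacatTGACGTCAgctccgagtc

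Many of the calls named above, some of the largest rises and falls included, were under 2-fold with the authors' values. These were ACOT1, ACOT2, SPINK13, STK38L, FZD8, IL1B, SPRY1, H2AC18 and H2AC20 among the higher genes, and GSPT2, TERF1, IFI27, FCGBP, ERGIC1, TSPY8, INHBB, BMPR2, COL5A1, MAGEC1, MAGEC2, MT1F, VLDLR, POT1 and RRM2 among the lower genes, with folds between 1.34 for MAGEC2 and 1.96 for ERGIC1. A second H2AC18 probe differed 1.55-fold and a second MAGEC1 probe at least 1.28-fold, each in the direction of the call.

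Genes with a further detected probe allowed a second reading of the same RNA, taken as the mean log2 fold of a gene's further probes. Of 31 such higher genes 21 (67.7%) differed in the same direction on them, and of 28 lower genes 22 (78.6%), against 63.1% of 3088 genes that were not called. Among called genes whose call held under at least 7 of the 9 alternatives, 8 of 10 had the same direction and 7 reached 2-fold. Among the other called genes 35 of 49 had the same direction and 5 reached 2-fold. The alternative that took the mean of detected probes used these further probes too, so the groups were partly sorted by them. No conclusion is drawn from the difference between these groups. The further probes of ACOT1, TSPY2, TERF1, FCGBP, MAGEC2 and VLDLR were undetected on both fragment arrays, as for DMBT1, and gave no second reading. NLGN4X and NLRP7 each had a further detected probe, lower by at least 2.65-fold and 2.20-fold, beside further probes undetected on both fragment arrays.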

How the data were processed

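Signals of 47230 probes on 7 arrays were deposited without normalization as intensities, which are bead means that the authors took from the BeadArray Reader, each with a deposited detection p value. The authors' normalized table holds intensities made with GeneSpring GX by a method that the text does not name, and was used as an alternative. Intensities were background-corrected with neqc of limma 3.58.1 in R 4.3.3 (background from the detection p values, offset of 16), quantile normalized over the 7 arrays and put on the log2 scale. Of the probes, 30112 had 1 listed gene, 8 several and 17110 none. For each of the 20045 genes the brightest probe, by its log2 signal averaged over the arrays, was kept. The Welch's test of the methods could not be run, because each line has 1 array and no bead errors are given. The number of arrays limits the precision. The 9 alternatives changed the table, background, scaling, offset, detection limit, floor or choice of probe.

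Named were PTK7, the 15 largest rises and 15 largest falls, up to 6 called members of each list, the genes the study names, genes called against HT1080 in opposite directions, and defining markers. Members and lists were chosen with earlier results of these data known. The processing was tested on simulated data. Further steps ran in Python 3.11.15 (pandas 2.3.3, numpy 2.4.6), and figures were drawn with matplotlib 3.10.9.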

Additional observations from a re-analysis of the deposited data

Results flagged for a closer look

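NDN and TSPY2 were called against HT1080 cells in opposite directions in the 2 lines. The log2 fold of NDN over HT1080 was −1.88 in cPTK7/726-1070 cells, where it was undetected so that the fall is at least this large, and 1.57 in cPTK7/622-1070 cells. For TSPY2, which has near-identical copies, it was −1.13 in cPTK7/726-1070 cells, again a bound, and 1.23 in cPTK7/622-1070 cells. With 1 array per line the difference was not tested for either gene.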

How the results depend on the processing

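Against 147 higher and 119 lower genes as reported, the authors' normalized table gave 22 and 17, no background correction 22 and 16, an offset of 50 gave 75 and 45, a detection p under 0.01 gave 96 and 70, and no floor 261 and 276. With no normalization and a floor of 200 the counts were 9 and 69, the share of higher genes among the calls was 11.5% against 55.3%, and the median of all genes moved to −0.18. Scaling to the 75th percentile (152 and 95), quantile normalization over the 2 arrays (128 and 107) and the mean of detected probes (128 and 106) stayed within 1.5 times. Of the 266 calls 37 held under at least 8 alternatives and 49 under at least 7. The median of 14 of 40 lists changed sign with no normalization and a floor of 200 together, and of 8 under percentile scaling. No array could be left out, since each line has 1. No paired analysis was possible because each group has 1 array. Signals close to the floor limit what can be called: 3426 of the tested genes had a signal under 200 on the brighter of the 2 arrays.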

Other observations

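Probes with no listed gene were left out of the comparison. Of 5470 such probes detected on either array, 130 were at least 2-fold higher and 47 lower in cPTK7/726-1070 than in cPTK7/622-1070 cells, 3.24% in all. The brightest of the largest differences was probe ILMN_3219340, at 19946 in cPTK7/726-1070 and 3894 in cPTK7/622-1070 cells (5.12-fold), against 16221 in HT1080 cells and between 11780 and 25502 on the other 4 arrays, so that the cPTK7/622-1070 array was the one that stood apart. Probe ILMN_1746972 gave 365 in cPTK7/726-1070 and 91.9 in cPTK7/622-1070 cells (3.97-fold) and was at the floor on the 5 other arrays.

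Called genes that are direct neighbours were PPFIBP2 with CYB5R2, SPINK6 with SPINK13, ACOT1 with ACOT2, EML2 with MIR330, and MAGEC1 with MAGEC2, each pair called in 1 direction.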
